A study of Mus musculus with 9 samples.

Results

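The 10 genes of MHC class II antigen presentation were taken from the deposited gene table by their symbols (H2-Aa, H2-Ab1, H2-Eb1, Cd74, Ciita, H2-DMa, H2-DMb1, H2-DMb2, H2-Oa and H2-Ob). All 10 were found among the 28379 genes of the table, and all 10 were among the 17002 genes left after a filter on low counts. The cells were bone marrow-derived macrophages (BMDMs) from C57BL/6J mice of 10 weeks, given M-CSF at 20 ng/ml in all groups and cultured for 48 h. The PBS group received no further factor. The RANKL group received RANKL, the cytokine that drives osteoclast formation, at 100 ng/ml. The RANKL + Vit D + K group received the same RANKL with calcitriol (1,25-dihydroxyvitamin D3) at 1000 nM and the vitamin K2 form menaquinone-4 (MK4), whose dose is 20 µM in the labels and 40 µM in the study's methods. Each group had 3 libraries of poly(A) RNA. No group received a vitamin alone or without RANKL, so the parts of calcitriol, MK4 and RANKL in the last group cannot be told apart. The methods speak of pooled RNA and the labels name no animal, so p-values measure only the spread between these libraries.

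MHC class II molecules display peptides from the endosomes of antigen presenting cells to CD4+ T cells. An alpha and a beta chain (H2-Aa with H2-Ab1 form I-A, and H2-Eb1 is the beta chain of I-E) are assembled in the endoplasmic reticulum on the invariant chain, Cd74, which fills the groove and carries the complex to the endosome. There the editor H2-DM (H2-DMa with H2-DMb1 or H2-DMb2) exchanges the remnant of the invariant chain for peptide, and H2-DO (H2-Oa with H2-Ob) restrains H2-DM. Most of these genes are transcribed through a shared promoter module of X and Y boxes, bound by RFX, CREB and NF-Y factors, to which the transactivator Ciita is recruited. Macrophages are known to raise the set under interferon gamma by way of IRF1 and USF1 at the Ciita gene.

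In the files' coordinates, which are those of mouse build GRCm38, 8 of the 10 genes lie in the class II region of chromosome 17. From one end to the other these are H2-Oa (chr17:34092340-34095234), H2-DMa (chr17:34119541-34139101), H2-DMb2 (chr17:34143307-34151555), H2-DMb1 (chr17:34153072-34160230), H2-Ob (chr17:34238903-34249309), H2-Ab1 (chr17:34257689-34269419), H2-Aa (chr17:34282744-34287823, minus strand) and H2-Eb1 (chr17:34305867-34316674). Ciita is on chromosome 16 (chr16:10480059-10526426) and Cd74 is on chromosome 18 (chr18:60803848-60812646). Apart from H2-Aa, all 10 are on the plus strand.

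The promoters are shown first. In 5 of the 7 genes with a window they held a pair of X and Y box motifs, by a pattern chosen after the windows had been read. The pair first chosen was in 2 genes. RefSeq windows on GRCm38.p6, from 250 bases before to 50 bases after the start, were matched for 7 of the 10 genes (8 windows, with 2 for H2-DMa). Cd74, Ciita and H2-Ab1 were not matched. The start is that of RefSeq, which is not always the gene start given above. Below, 60 bases are given for the 6 genes with TGATTGG, the Y box with 2 bases before it, on the strand of the gene. Capitals mark TGATTGG and, where it precedes within 40 bases, CTNNNAAC, which is part of the X box.

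H2-Oa: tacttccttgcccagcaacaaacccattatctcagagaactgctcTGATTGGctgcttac

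H2-DMb2: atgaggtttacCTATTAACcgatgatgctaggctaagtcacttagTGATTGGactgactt

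H2-DMb1: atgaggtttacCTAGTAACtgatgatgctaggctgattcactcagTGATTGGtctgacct

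H2-Ob: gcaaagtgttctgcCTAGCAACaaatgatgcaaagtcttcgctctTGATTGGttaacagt

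H2-Aa: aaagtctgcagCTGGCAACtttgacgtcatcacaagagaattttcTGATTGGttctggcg

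H2-Eb1: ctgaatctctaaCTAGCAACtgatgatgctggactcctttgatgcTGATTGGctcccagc

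These stretches lie at chr17:34092289-34092348 (H2-Oa), chr17:34145112-34145171 (H2-DMb2), chr17:34153083-34153142 (H2-DMb1), chr17:34238801-34238860 (H2-Ob), chr17:34287859-34287918 (H2-Aa, minus strand) and chr17:34305761-34305820 (H2-Eb1). Those of H2-DMb2 and H2-DMb1 lie inside the spans given above for these genes, and so do both windows of H2-DMa. The H2-Oa stretch runs past the gene start given above. In 5 of the 8 windows CTNNNAAC was followed by TGATTGG, with 23 to 26 bases between them, and the same pair was in 0.28% of all 32851 windows searched on both strands. This pair was chosen after the windows had been read. Of the other patterns searched, ATTGG alone was in 7 of the 8 windows (37.4% of all windows) and a longer pattern of the X box core was in 3 (0.968% of all windows). The core was followed by ATTGG within 40 bases in 2 windows, those of H2-DMb1 and H2-Eb1, against 0.0426% of all windows. TGATTGG, which contains ATTGG, was in 6 of the 8 windows and in 7.82% of all windows. The H2-Oa window held TGATTGG without CTNNNAAC before it, and 1 of the 2 H2-DMa windows held none of these patterns. A match describes the letters of the window only.

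Libraries held 65915112 to 68229647 counts in total, and 3 counts, taken as the floor, were at most 4.55e-06% of a library. The macrophage identity of the cultures was checked on 9 markers, which were all at 1 FPKM or more in every library. Of the other cell types that carry class II, the B cell genes Pax5 and Ebf1 were at or near 0 (0.00438 FPKM at most), while Cd79b reached 0.795 and Cd22 2.52 FPKM. Of the dendritic cell genes Flt3, Zbtb46 and Xcr1 reached at most 0.181 FPKM, while Clec9a reached 0.315, Batf3 0.868 and Itgax 7.93 FPKM. Within the RANKL + Vit D + K group, replicates 1 and 2 were the least alike pair of libraries of 1 group in the series, with a root mean square difference of 1.26 in log2 CPM over genes, against 0.753 to 1.09 for the other pairs. No 2 libraries held identical counts.

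Replicate 2 of the RANKL group stood apart in the class II genes, and it bears on every comparison with that group. It was the lowest of the 3 RANKL libraries for 9 of the 10 genes, and replicate 3 was the highest for 9 of the 10. Replicates 1 and 3 were both above the range of the PBS group for 9 genes. Replicate 2 was above that range for 3 genes, within it for 3 and below it for 4. The 10 genes together had 94855 and 118146 counts in replicates 1 and 3 and 31192 in replicate 2, where the PBS libraries had 25164 to 32153. The 8 osteoclast markers ran the other way, highest in replicate 2 for 8 of 8 and lowest in replicate 3 for 8 of 8. Ctsk, the collagen-degrading protease of osteoclasts, had 251, 426 and 214 FPKM in RANKL replicates 1, 2 and 3. The summed FPKM of 8 neutrophil markers was 11.3 to 148 in the RANKL group, and S100a9 among them had 36.0, 66.9 and 3.66 FPKM in the same order. This order of the replicate numbers was also seen in the PBS group, where S100a9 had 32.7, 56.5 and 3.98 FPKM. Of the 9 macrophage markers, 7 were lowest in RANKL replicate 2. The part of any of these in the class II values was not tested.

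**Figure D1:**
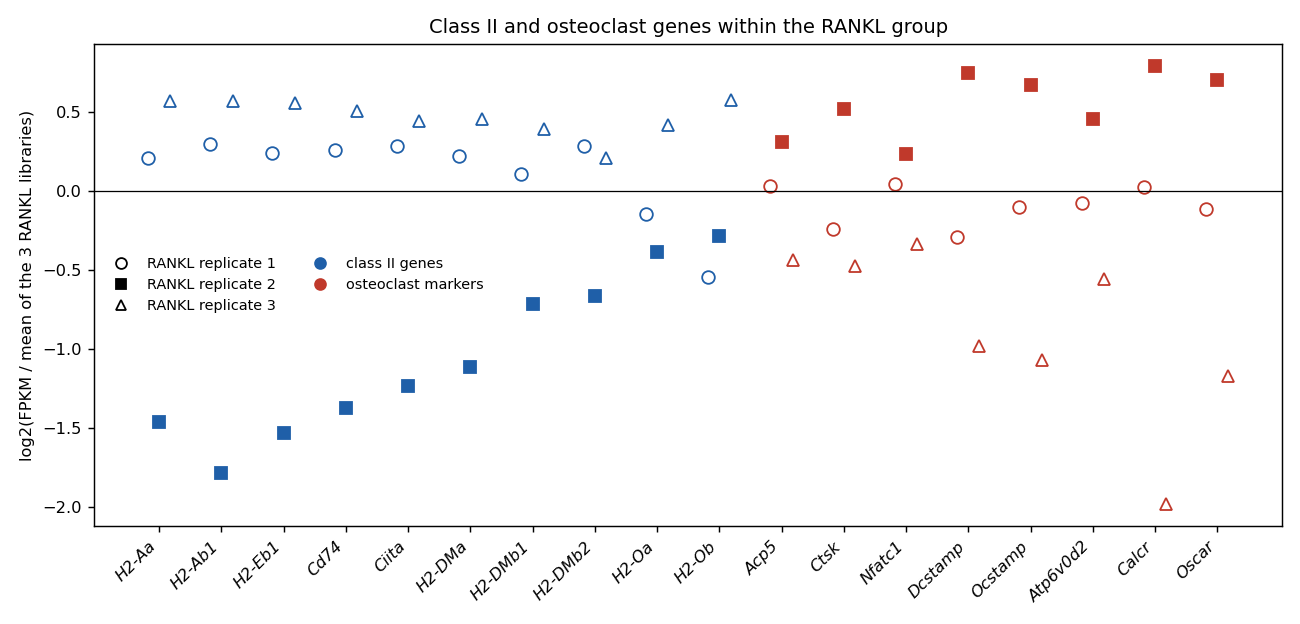
Each point is the log2 of a gene's FPKM in 1 RANKL library over the mean of the 3 RANKL libraries, for the 10 class II genes (blue) and 8 osteoclast markers (red). Filled squares are replicate 2, which lies lowest for 9 of 10 class II genes and highest for 8 of 8 osteoclast markers.

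Among the 10 genes, Ciita kept the lowest share of its RANKL level once vitamins were added. Its FPKM was 5.27, 3.30 and 2.93 in the PBS libraries, 11.1, 3.88 and 12.4 in the RANKL libraries and 0.0491, 0.121 and 0.0920 in the vitamin libraries, those of the RANKL + Vit D + K group. All 3 vitamin libraries were far below the other 6, while RANKL replicate 2 fell inside the PBS range. These last values rest on 35, 89 and 67 counts, all above the floor. On the mean, Ciita was 9.13 ± 4.59 FPKM (SD, n = 3) with RANKL and 0.0874 ± 0.0362 FPKM with RANKL and vitamins. The log2 fold change was -6.59 (SE 0.568), a 96.2-fold lower level, with an adjusted p of 0.000302 by edgeR's quasi-likelihood test (Benjamini-Hochberg). Its size depended on the scale: from log2(FPKM + 0.1) it was -5.48 and from log2(FPKM + 1) it was -3.09.

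The classical chains came next. H2-Eb1, the I-E beta chain, had 13.6, 14.8 and 14.8 FPKM with PBS, 43.2, 12.7 and 53.8 with RANKL and 0.403, 1.16 and 0.942 with RANKL and vitamins. H2-Aa, the I-A alpha chain, had 9.72, 9.94 and 8.71 FPKM with PBS, 35.6, 11.2 and 45.8 with RANKL and 0.265, 1.35 and 1.10 with RANKL and vitamins. H2-Ab1, the I-A beta chain, had 20.3, 15.5 and 16.4 FPKM with PBS, 60.1, 14.2 and 72.6 with RANKL and 1.08, 2.48 and 1.88 with RANKL and vitamins. For each of these 3 chains the vitamin libraries were below all other libraries, and replicate 1 was the lowest of them. RANKL replicate 2 was above the PBS range for H2-Aa and below it for H2-Ab1 and H2-Eb1. In the RANKL + Vit D + K group against the RANKL group the log2 fold change was -5.33 (SE 0.585) for H2-Eb1, -5.00 (SE 0.665) for H2-Aa and -4.65 (SE 0.592) for H2-Ab1. The adjusted p-values of these 3 in edgeR's quasi-likelihood test (Benjamini-Hochberg) were 0.000682, 0.00129 and 0.00112.

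The invariant chain was the most abundant of the 10 in every group. Cd74 had 110.8, 73.5 and 92.1 FPKM in the PBS libraries, 392.7, 126.6 and 465.8 in the RANKL libraries and 13.1, 27.5 and 26.3 in the vitamin libraries. Here all 3 RANKL libraries were above all 3 PBS libraries, and the vitamin libraries were below both. Vitamins on top of RANKL changed Cd74 by a log2 fold change of -3.77 (SE 0.4995, adjusted p = 0.00127, edgeR's quasi-likelihood test (Benjamini-Hochberg)).

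The editor genes fell less far on the log2 scale. H2-DMa, the alpha chain of H2-DM, had 11.2, 8.52 and 8.90 FPKM with PBS, 16.2, 6.42 and 19.0 with RANKL and 0.766, 2.62 and 1.06 with RANKL and vitamins. H2-DMb1, a beta chain, had 25.3, 23.8 and 22.8 FPKM with PBS, 40.8, 23.1 and 49.6 with RANKL and 7.48, 12.2 and 8.0 with RANKL and vitamins. H2-DMb2, the other beta chain, had 1.42, 1.80 and 1.06 FPKM with PBS, 2.42, 1.26 and 2.30 with RANKL and 0.245, 0.697 and 0.219 with RANKL and vitamins. The vitamin libraries were again below all others for each gene, with replicate 2 the highest of the 3. Without that library the change of H2-DMb2 below would be -2.89. Against the RANKL group the log2 fold changes were -3.14 (SE 0.501) for H2-DMa, -2.27 (SE 0.471) for H2-DMb2 and -1.92 (SE 0.282) for H2-DMb1, with adjusted p-values of 0.00265, 0.00722 and 0.00185 by edgeR's quasi-likelihood test (Benjamini-Hochberg). H2-DMb1 kept 24.4% of its mean RANKL FPKM, against 0.957% for Ciita. H2-DMb1 and H2-DMb2 share 369 stretches of 50 bases in their exons, 22.7% and 21.2% of those in each gene, so reads may have been split between them and their separate values are uncertain. H2-DMa shares 360 of its 3448 exon bases with Brd2 on the opposite strand, and whether the counting used strand is not given in the sources used here.

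The H2-DO genes had the lowest FPKM of the set with PBS and with RANKL. H2-Oa had 31, 35 and 23 counts with PBS, 60, 51 and 91 with RANKL and 36, 26 and 50 with RANKL and vitamins, or 0.215 to 0.821 FPKM in all. All RANKL libraries were above the PBS libraries and above the vitamin libraries, and the last 2 groups overlapped. None of its 3 comparisons passed the test (adjusted p of 0.266, 0.279 and 0.560 by edgeR's quasi-likelihood test (Benjamini-Hochberg)). H2-Oa shares 321 of its 1407 exon bases with BC051537 on the opposite strand. H2-Ob had 54, 49 and 67 counts with PBS, 15, 19 and 35 with RANKL and 4, 8 and 15 with RANKL and vitamins. It was highest in the PBS group, with no overlap with either other group, and it was above the count filter's cutoff in 7 of the 9 libraries, while the other 9 genes were above it in all 9.

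**Figure D2:**
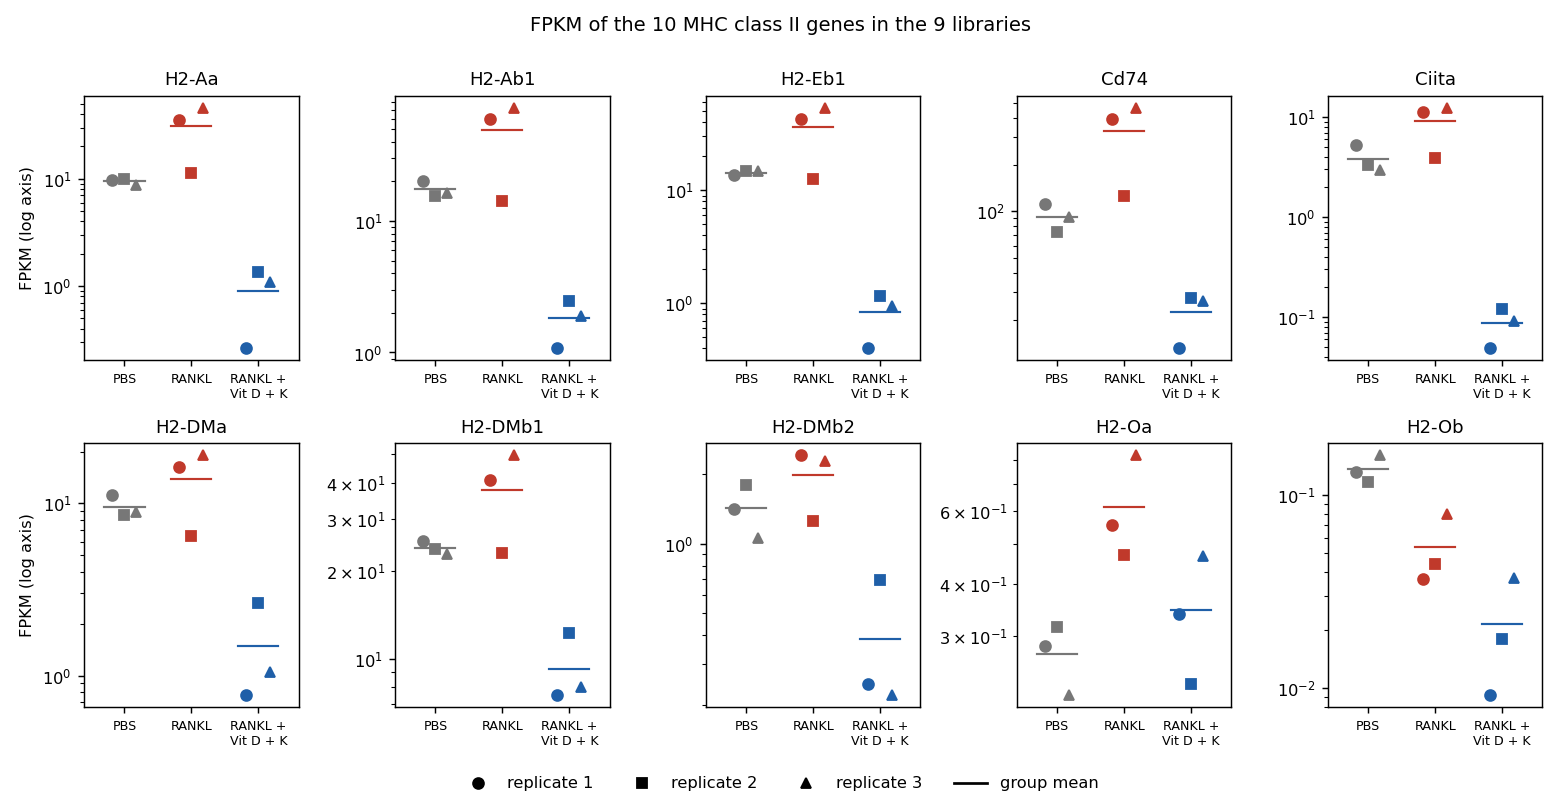
FPKM on a log axis for each class II gene in the 9 libraries, with 1 panel per gene. Marker shapes are the replicate numbers and horizontal lines are group means. The RANKL + Vit D + K libraries lie below all others for 8 of the 10 genes, and RANKL replicate 2 (square) lies near the PBS libraries for most.

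In order of mean FPKM, the PBS group ran from Cd74 (92.1) through H2-DMb1 (24.0), H2-Ab1 (17.4), H2-Eb1 (14.4), H2-DMa (9.56), H2-Aa (9.46), Ciita (3.83), H2-DMb2 (1.43) and H2-Oa (0.271) to H2-Ob (0.137). Neighbours in that order did not overlap between libraries except H2-DMa and H2-Aa. In the RANKL group the means of H2-Ab1 (48.95), H2-DMb1 (37.8), H2-Eb1 (36.6), H2-Aa (30.9), H2-DMa (13.9) and Ciita (9.13) overlapped from each gene to the next. In the RANKL + Vit D + K group Cd74 (22.3) and H2-DMb1 (9.23) stood above H2-Ab1 (1.81), and Ciita moved below H2-Oa, to the ninth place.

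For RANKL alone, 9 of the 10 genes had a positive log2 fold change against PBS, with a median of 1.09 where the median of all genes tested was -0.0431, but none passed the test. The count was 0 higher and 0 lower in edgeR's quasi-likelihood test (Benjamini-Hochberg), and over all genes 2.35% were called higher and 1.26% lower. At an unadjusted p under 0.05, 6 genes were higher (H2-Aa, H2-Ab1, H2-Eb1, Cd74, Ciita and H2-Oa) and 1 was lower (H2-Ob), where 9.96% of all genes were higher and 8.65% lower. The values were 1.73 (SE 0.460, adjusted p = 0.0762) for Cd74, 1.61 (SE 0.571) for H2-Aa, 1.40 (SE 0.515) for H2-Ab1, 1.25 (SE 0.488) for H2-Eb1 and 1.15 (SE 0.441) for Ciita, the last 4 with adjusted p-values of 0.169 to 0.210. H2-Oa had 1.04 and H2-Ob -1.45, and the 3 H2-DM genes had 0.373 to 0.549. These 3 depended on single RANKL libraries: leaving out 1 of them gave 0.115 to 0.792 for H2-DMa, 0.280 to 0.829 for H2-DMb1 and 0.2 to 0.640 for H2-DMb2, each highest without replicate 2 and lowest without replicate 3, or without replicate 1 for H2-DMb2. The groups did not overlap for 3 genes that were higher (Cd74, H2-Aa and H2-Oa; 22.4% of all genes) and for 1 that was lower (H2-Ob; 12.9% of all genes).

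RANKL replicate 2 and the choice of tool decided this count. Without RANKL replicate 2, H2-Ab1 (1.85, adjusted p = 0.0205), H2-Eb1 (1.67, adjusted p = 0.0480) and Cd74 (2.13, adjusted p = 0.0182) were called higher by the same edgeR test, which then called 0.767% of all genes higher and 0.321% lower. DESeq2 on all libraries also called 3 genes, H2-Aa (1.64, adjusted p = 0.0295), H2-Ab1 (1.43, adjusted p = 0.0401) and Cd74 (1.76, adjusted p = 0.00157), where it called 6.07% of all genes higher and 3.18% lower.

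With the vitamins added to RANKL, 8 of the 10 genes fell and none rose, and the 2 that did not pass were the H2-DO genes. Over all genes 17.2% were called lower and 16.4% higher in this comparison. The median log2 fold change of the 10 was -3.46, against -0.0435 over all genes tested. The groups did not overlap for 9 genes, which were all lower with vitamins (29.2% of all genes; 17.0% did not overlap and were higher). H2-Oa had -0.676 (SE 0.454) and H2-Ob -1.19 (SE 0.610). Leaving out 1 library moved H2-Ob to between -1.82 (without RANKL + Vit D + K replicate 3) and -0.746 (without RANKL replicate 3) and H2-Oa to between -0.970 and -0.393 by the same removals. The 8 calls held without RANKL replicate 2, where the log2 fold changes of the 8 were -6.97 to -2.20. Since replicate 2 was the lowest RANKL library for these 8 genes, leaving it out could only raise the RANKL mean. Without RANKL replicate 3 the 8 calls also held, with log2 fold changes of -6.28 (Ciita) to -1.65 (H2-DMb1). In bulk RNA, fewer cells of a type and less RNA per cell cannot be told apart.

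Against PBS, 9 of the 10 genes were lower with RANKL and vitamins, so the levels were below those of macrophages that had received no RANKL. Over all genes 21.0% were called lower and 19.8% higher. The log2 fold changes were -5.44 (SE 0.542) for Ciita, -4.08 (SE 0.555) for H2-Eb1, -3.39 (SE 0.620) for H2-Aa, -3.25 (SE 0.557) for H2-Ab1, -2.71 (SE 0.493) for H2-DMa, -2.64 (SE 0.625) for H2-Ob, -2.04 (SE 0.465) for Cd74, -1.9 (SE 0.466) for H2-DMb2 and -1.37 (SE 0.278) for H2-DMb1. Their adjusted p-values in edgeR's quasi-likelihood test (Benjamini-Hochberg) ran from 0.000284 to 0.0113. Without RANKL + Vit D + K replicate 2 the change of H2-DMb2 was -2.51. H2-Oa had 0.362 (SE 0.458), or 0.623 and 0.119 without RANKL + Vit D + K replicate 2 and replicate 3. The median of the 10 was -2.67, against -0.0422 over all genes tested. The groups did not overlap for the same 9 genes (27.7% of all genes were lower without overlap and 24.8% higher). The 3 comparisons share their libraries, so they are not independent of each other.

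**Figure D3:**
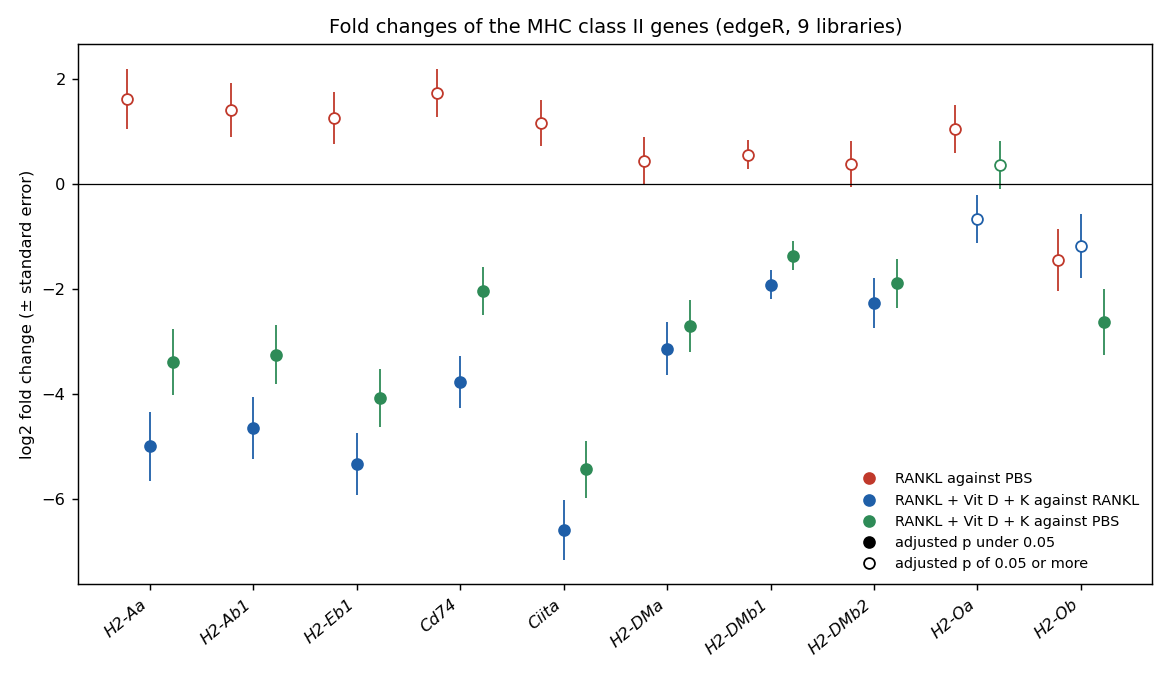
Log2 fold change with its standard error for each class II gene in the 3 comparisons, from edgeR's model of 9 libraries. Filled points have an adjusted p under 0.05: none for RANKL against PBS (red), 8 for RANKL + Vit D + K against RANKL (blue) and 9 for RANKL + Vit D + K against PBS (green).

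Unequal change was followed as ratios within a library, with 0.1 added to each FPKM. The smallest two-sided p that the exact permutation test of 3 libraries against 3 can give is 0.1, so none of the 12 tests could pass 0.05. Cd74 to H2-Ab1, the invariant chain to a chain it binds, was 4.75 to 5.62 in the PBS libraries, 6.42 to 8.91 in the RANKL libraries and 11.1 to 14.0 in the RANKL + Vit D + K libraries as a plain ratio of FPKM. The 3 groups did not overlap, and the log2 ratio was 2.39 ± 0.130, 2.85 ± 0.262 and 3.55 ± 0.166 (SD, n = 3). Each pair of groups gave an exact permutation p of 0.1 (0.15 adjusted over the 12 tests). With 1 in place of 0.1 added, the log2 difference between the vitamin and RANKL groups shrank from 0.703 to 0.207 (exact permutation p = 0.3).

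H2-DMa to H2-Ab1 was 0.543 to 0.555 with PBS, 0.262 to 0.452 with RANKL and 0.561 to 1.06 with RANKL and vitamins. RANKL libraries were thus the lowest and vitamin libraries the highest, with no overlap and an exact permutation p of 0.1 for each pair of groups. Ciita to H2-Ab1 was 0.179 to 0.260 with PBS, 0.171 to 0.273 with RANKL and 0.0454 to 0.0490 with RANKL and vitamins. The log2 ratio of Ciita differed by -1.03 between the vitamin and RANKL groups (exact permutation p = 0.1), but with 1 added to each FPKM, which is more than Ciita itself had there, the sign turned to 0.802. H2-Aa to H2-Ab1, the chains of I-A, overlapped between all groups except for RANKL replicate 2 (0.791) and vitamin replicate 1 (0.245), which lay outside the 0.480 to 0.643 of the other libraries. Its exact permutation p-values were 0.2 to 0.7.

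**Figure D4:**
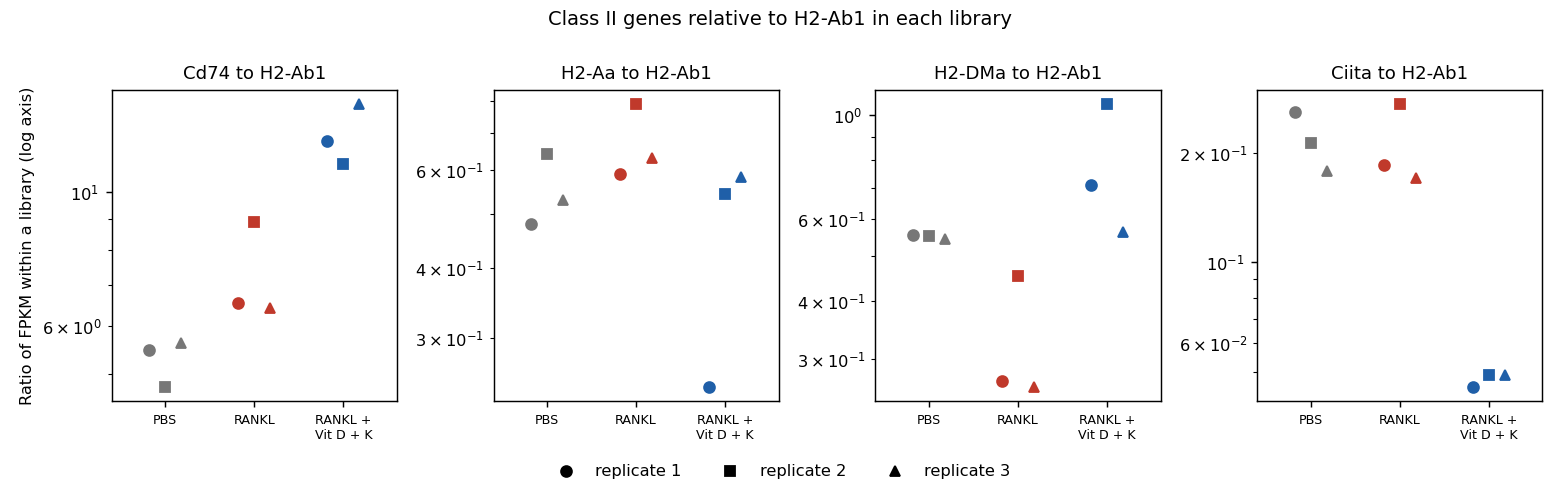
FPKM of Cd74, H2-Aa, H2-DMa and Ciita over that of H2-Ab1 in the same library, on log axes that each have their own range. Cd74 to H2-Ab1 rises from 4.75-5.62 in PBS to 11.1-14.0 in RANKL + Vit D + K, and Ciita to H2-Ab1 drops to 0.0454-0.0490.

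The list of promoter binding factors had 8 genes, those of the proteins at the X and Y boxes and Ctcf, an insulator protein that binds elsewhere in the region. Against RANKL alone, vitamins lowered 2 of the 8 and raised 3 (17.2% of all genes were called lower and 16.4% higher), with a median log2 fold change of 0.002 (-0.0435 over all genes). The RFX subunits Rfx5 (-1.09) and Rfxap (-0.915) fell, from 4.20 ± 0.301 to 1.82 ± 0.842 FPKM and from 5.85 ± 0.217 to 2.82 ± 0.514 FPKM (SD, n = 3). Nfya (0.536) and Nfyb (0.683), subunits of NF-Y, and Ctcf (0.553) rose. Rfx5 and Nfyb are named outside the rule for named genes, after their values were seen. The call of Nfyb was lost in 14 of 18 alternative settings and that of Ctcf in 1, without RANKL replicate 1 (adjusted p = 0.0502). Against PBS, 3 of the 8 were lower with vitamins, Rfx5, Rfxap and the third RFX subunit Rfxank (-0.671), and Nfyb and Ctcf were higher (21.0% and 19.8% of all genes). The calls against PBS were lost for Rfx5 and for Nfyb without 1 of the PBS libraries (adjusted p of at most 0.0511 and 0.0779) and for Rfxank without RANKL + Vit D + K replicate 3 (adjusted p = 0.0566). Nfyc and Creb1 passed in no comparison, and none of the 8 passed the test between RANKL and PBS.

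Of 9 genes on the path from the interferon gamma receptor to Ciita, 4 fell with vitamins against RANKL and none rose, beside 17.2% and 16.4% of all genes, with a median log2 fold change of -0.458 (-0.0435 over all genes). Ifngr1 (-1.16, SE 0.162), the receptor's ligand-binding chain, fell from 104.3 ± 11.6 to 42.7 ± 10.1 FPKM. The transcription factor genes Irf1 (-1.16, SE 0.214) and Usf1 (-1.07, SE 0.146) fell from 15.2 ± 2.54 to 6.08 ± 1.09 FPKM and from 18.8 ± 1.9 to 8.18 ± 1.82 FPKM. The adjusted p-values of these 3 were 0.00139 to 0.00463 by edgeR's quasi-likelihood test (Benjamini-Hochberg). Spi1 (-0.458), which encodes the myeloid factor PU.1, was the other gene that fell, and its call was lost in 9 of 18 alternative settings. Against PBS the same 4 were lower together with Irf8 (-1.03), where 21.0% of all genes were lower, and there the call of Spi1 was lost in 11 of 18 settings. Spi1 and Irf8 are named after their values were seen. Ifngr2, Jak1, Jak2 and Socs1 passed in no comparison, and none of the 9 passed between RANKL and PBS. Irf8 had -0.938 (adjusted p = 0.0560) between RANKL and PBS and passed there in 8 of 18 settings, and Ifngr2 passed with vitamins in 4 settings against RANKL and in 3 against PBS.

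Of 7 genes for processing antigen and invariant chain in the endosome, vitamins lowered 2 and raised 4 against RANKL, with a median log2 fold change of 0.504. Over all genes 17.2% were called lower and 16.4% higher, and the median was -0.0435. Against PBS, 2 of the 7 were lower with vitamins, Ctss (-0.798) and Lgmn (-0.707, adjusted p = 0.0139 by edgeR's quasi-likelihood test (Benjamini-Hochberg)), and 2 were higher, Ctsl (0.682) and Ctsz (0.493), with a list median of -0.228 (21.0% of all genes lower, 19.8% higher, median -0.0422). Lgmn encodes an asparagine-specific endosomal protease. The call of Ctsz against PBS was lost without PBS replicate 2 or replicate 3 (adjusted p of at most 0.0522). Ifi30, the lysosomal thiol reductase GILT, rose with RANKL and fell with vitamins. It had 148.0 ± 30.5 FPKM with PBS, 426.4 ± 17.6 with RANKL and 132.7 ± 63.1 with RANKL and vitamins, with log2 fold changes of 1.41 (adjusted p = 0.0186) for RANKL against PBS and -1.57 (adjusted p = 0.00240) for vitamins against RANKL by edgeR's quasi-likelihood test (Benjamini-Hochberg). With vitamins it did not pass against PBS (-0.166, adjusted p = 0.615), and RANKL replicate 2 did not stand apart in it (31046 to 32369 counts in the RANKL group). The call of Ifi30 between RANKL and PBS was lost without any 1 of the 3 RANKL libraries, PBS replicate 1 or PBS replicate 3 (adjusted p of at most 0.0911). Ctss (-0.672), the protease that trims the invariant chain, fell, and the cathepsin genes Ctsz (0.521), Ctsd (0.505), Ctsb (0.504) and Ctsl (0.550) rose. The call of Ctss against RANKL was lost without RANKL replicate 1 or replicate 3 (adjusted p of at most 0.0634), and those of the 4 that rose were each lost in 6 to 9 of 18 alternative settings, among them without RANKL replicate 1, RANKL replicate 3 or RANKL + Vit D + K replicate 3. Ctsd (-0.800) and Ctsb (-0.733) were lower with RANKL than with PBS (1.26% of all genes were lower there and 2.35% higher), calls lost in 6 and 10 of the 18 settings, which for Ctsd were the removal of any 1 PBS or RANKL library.

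Of 6 genes for class II turnover and costimulation, vitamins raised 2 and lowered 2 against RANKL (16.4% of all genes were called higher and 17.2% lower), with a median log2 fold change of 0.0798 (-0.0435 over all genes). Marchf1 (-2.55, SE 0.435), the ubiquitin ligase that sends surface class II and CD86 to degradation, fell from 8.71 ± 2.48 to 1.39 ± 0.803 FPKM. Cd86 (2.0, SE 0.284), a costimulatory ligand, rose from 3.88 ± 0.435 to 13.8 ± 4.60 FPKM, opposite to the class II genes. The adjusted p-values of Marchf1 and Cd86 were 0.00340 and 0.00163 by edgeR's quasi-likelihood test (Benjamini-Hochberg). Marchf8 (0.836), a related ligase, rose, and Cd80 (-0.940) fell by a call lost in 11 of 18 settings. Cd83 (-2.10, adjusted p = 0.0159 by the same test), a surface protein that stabilises class II, was the only gene of the 6 that passed between RANKL and PBS, where it fell (1.26% of all genes did). That call was lost without PBS replicate 1, PBS replicate 3, RANKL replicate 1 or RANKL replicate 2 (adjusted p of at most 0.0723). Against PBS, 2 of the 6 were higher with RANKL and vitamins, Cd86 (2.83) and Marchf8 (0.59, a call lost in 9 of 18 settings). Marchf1 (-3.19) and Cd83 (-1.36) were lower. The list median was -0.606 (-0.0422 over all genes), where 19.8% of all genes were higher and 21.0% lower. Cd40 passed in no comparison.

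The neighbours on chromosome 17 are given beside the class II genes. Between H2-Oa and Btnl2 the table holds 22 genes, 8 of them class II genes of this set, and 9 others were tested. With vitamins against RANKL, 6 of the 8 class II genes were lower, with a median log2 fold change of -2.70, and 4 of the 9 others were lower and 1 higher, with a median of -0.587. Over all genes 17.2% were called lower and 16.4% higher, with a median of -0.0435. The 4 that fell encode class I proteins of the proteasome and the peptide transporter: Psmb9 (-1.45), Tap1 (-0.587), Psmb8 (-0.567) and Tap2 (-0.434). The call of Tap2 was lost without RANKL replicate 3 (adjusted p = 0.0519), and that of Psmb8 in 5 of 18 settings, among them without replicate 1 or 3 of the RANKL or of the RANKL + Vit D + K group (adjusted p of at most 0.0785). Brd2 (0.924, SE 0.209), a bromodomain protein whose exons overlap those of H2-DMa, rose. Outside this stretch, the class I gene H2-K1 had 263.6 ± 39.3 FPKM with RANKL and 253.2 ± 22.9 with RANKL and vitamins (log2 fold change 0.0924, SE 0.187, adjusted p = 0.735 by edgeR's quasi-likelihood test (Benjamini-Hochberg)). Gm20493, which lies within the span of H2-DMa, had a fitted change of -6.31 on few counts with a standard error too large to pass. H2-Eb2 was too low to test. H2-Ea-ps, the locus of the I-E alpha chain, was not matched, so the H2-Eb1 values do not show that I-E was formed.

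**Figure D5:**
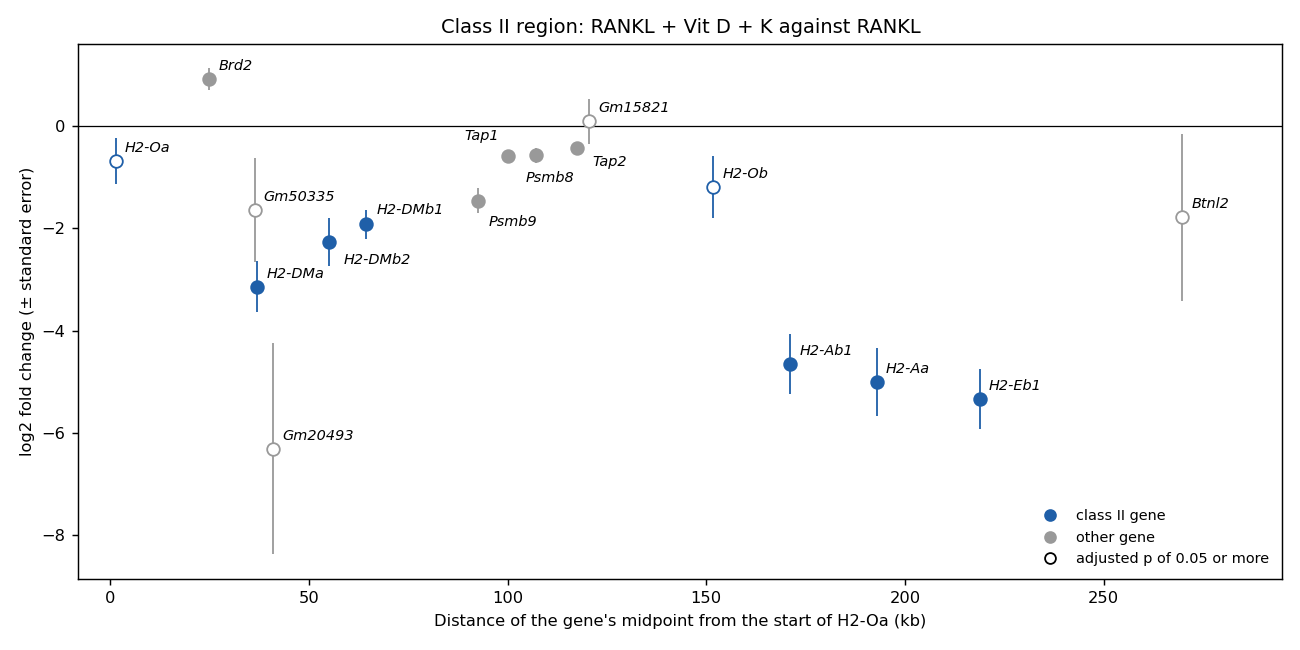
Log2 fold change with its standard error for the 17 tested genes between H2-Oa and Btnl2, RANKL + Vit D + K against RANKL, by the distance of each gene's midpoint from the start of H2-Oa. Class II genes (blue) reach -5.33, the 4 class I processing genes (grey) lie between -1.45 and -0.434, and Brd2 is above 0. Open points did not pass an adjusted p of 0.05.

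Markers of other cells moved beside these values, and their part in them was not tested. Of 9 macrophage markers, 6 were lower and 1 (Cd68) higher with vitamins than with RANKL (17.2% and 16.4% of all genes), at a median log2 fold change of -0.999, and the summed FPKM was 4540 to 11600 against 16700 to 24300. Against PBS, 7 of the 9 were lower with vitamins and 1 was higher (21.0% and 19.8% of all genes), at a median of -1.38. Their summed FPKM was 26500 to 30700 in the PBS group. Csf1r, the M-CSF receptor, had 136 to 221 FPKM with vitamins against 412 to 627 with RANKL. The 9 dendritic cell markers summed to 1.62 to 2.15 FPKM with PBS, 3.01 to 3.49 with RANKL and 7.04 to 8.20 with vitamins, mostly from Itgax (6.53 to 7.93 with vitamins), while 3 of the 9 had no count in the vitamin group. Single genes of this list moved otherwise than the sum. Of the 8 tested, 7 had a negative log2 fold change with vitamins against RANKL, and 3 of them were called lower (Flt3, Cd209a and Batf3), while Itgax was called higher. Between RANKL and PBS 6 of the 8 were positive, and Itgax was called higher. Flt3 had 0.0883, 0.0942 and 0.111 FPKM in the RANKL libraries, at most 0.00612 with PBS and no count with vitamins. The B cell list, with 5 of its 6 genes in the table, summed to 1.9 to 2.11, 2.30 to 3.13 and 1.27 to 1.65 FPKM, mostly from Cd22, and Cd79b was called lower with vitamins than with RANKL (0.326 to 0.795 FPKM with RANKL, at most 0.0248 with vitamins). The T cell list, with 3 of 7 genes in the table, summed to 0.355 to 0.664, 2.33 to 4.03 and 0.312 to 0.625 FPKM, mostly from Cd4 with PBS and with RANKL and from Lck with vitamins. Cd4 was called higher with RANKL than with PBS and lower with vitamins than with RANKL, and Lck was called in neither comparison. The neutrophil markers summed to 11.1 to 128 FPKM with PBS and 0.551 to 1.72 with vitamins, and 6 of the 7 tested were lower with vitamins than with RANKL. The 6 stromal markers summed to at most 0.612 FPKM in any library. Of 8 osteoclast markers, all 8 were higher with RANKL than with PBS (2.35% of all genes were), and 7 were lower with vitamins than with RANKL (17.2% of all genes).

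Across the 9 libraries, the 8 genes other than the H2-DO pair moved closely together, with Pearson's r of log2 CPM between 0.885 (Cd74 and H2-DMb2) and 0.993 (H2-Ab1 and H2-DMb1). The r of H2-Oa with these 8 was 0.186 to 0.521, that of H2-Ob was 0.512 to 0.696, and that of H2-Oa with H2-Ob was -0.121. The libraries come from 3 treatment groups and share their depth and processing, so the values describe the pattern and carry no p. The 5 other genes whose profile was most like the mean of the class II genes were Slfn5 (r = 0.995, Spearman's rho = 0.917), Ddx60 (0.992 and 0.983), Parp9 (0.991 and 0.967), Trim30a (0.990 and 0.967) and Dexi (0.989 and 0.983), each over 9 libraries. Slfn5 had mean FPKM of 17.3, 32.7 and 4.67 in the PBS, RANKL and RANKL + Vit D + K groups. Ddx60, Parp9 and Trim30a are known as interferon-stimulated genes. Dexi overlaps Ciita on the opposite strand, where they share 329 of Ciita's 9535 exon bases, so reads of the 2 genes may not be separate.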

How the data were processed

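The authors deposited a single gene table with every library in it. Its read counts per gene are whole numbers as deposited, without scaling. Its FPKM values, fragments scaled to transcript length and to mapped reads, were computed by the authors. The submitters' processing notes name cutadapt 1.9, HISAT2 2.0.4, StringTie 1.3.4d, edgeR and the human build hg38, but the gene IDs and coordinates of the table are of mouse, and 24678 of its 28379 genes have the position given in GENCODE M21 (GRCm38), which was used here for exons and overlaps. Of the 10 class II genes, 7 have the GENCODE position. The PBS libraries are the columns named Negative. Whether multi-mapped reads were shared or strand was used is not given in the sources used here.

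Groups and replicate numbers were taken from the labels. Counts were tested in R 4.3.3 with edgeR 4.0.16 (filterByExpr, TMM, quasi-likelihood test, all 9 libraries modelled together, Benjamini-Hochberg adjustment over 17002 genes, threshold 0.05), after a test on simulated data. FPKM are given as mean ± SD over 3 libraries and were used for levels and, with 0.1 added, for 4 ratios within libraries, which were compared by exact permutation. A share of counts covers counting error only. Alternatives were DESeq2 1.42.0, limma 3.58.1 on log2(FPKM + 0.1 or 1), other scaling and filters, only 2 groups, a replicate block, counts divided by 4 and each library left out in turn, 18 settings in all. From each list of pathway genes, those called with the 3 lowest adjusted p-values in a comparison were named, and others named with a value were chosen after it was seen. The lists first held 2 more genes, which are not reported here. The 5 most alike genes were those of highest Pearson correlation with the mean z score of the members. The members, lists and tests were chosen with earlier results of these data known.

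The values printed come from the fit without a replicate block, which is an alternative. The replicate numbers met the criterion for pairing PBS and RANKL libraries, since the deviations of same-numbered libraries from their group means were correlated (0.122, 0.219 and 0.155 over genes). The labels do not say what a number marks. The block changed no call of a class II gene.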

Additional observations from a re-analysis of the deposited data

How the results depend on the processing

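Under the 18 alternative settings no class II gene changed the direction of its fold change in any of the 3 comparisons. For RANKL + Vit D + K against RANKL and against PBS all 175 values each kept their side of the threshold, where a gene was tested. For RANKL against PBS 169 did and 6 passed in addition: 3 genes were higher with DESeq2, and leaving out 1 library gave 0 to 3, with 3 without RANKL replicate 2. Over all genes, calls between RANKL and PBS (400 higher and 214 lower) ran by their sum from 96 and 30 without PBS replicate 3 to 972 and 931 without RANKL + Vit D + K replicate 2 (1064 and 557 with DESeq2), and between vitamins and RANKL (2796 and 2929) from 1578 and 1621 without RANKL replicate 1 to 3773 and 4486 without RANKL + Vit D + K replicate 2. Between vitamins and PBS (3368 and 3564) the calls were fewest by their sum without PBS replicate 1, at 2469 and 2297. They were most without RANKL + Vit D + K replicate 2, at 4143 and 4725. With at least 10 CPM required in 3 libraries only 7 of the 10 were tested, and H2-Ob was not tested by limma. On log2(FPKM + 1) the change of Ciita for vitamins against RANKL shrank to -3.09 (-2.12 against PBS) and that of H2-DMb2 to -1.10 (-0.814 against PBS). Those of H2-Eb1, H2-Aa and H2-Ab1 for vitamins against RANKL shrank to -4.15, -3.90 and -3.89. That of H2-Oa for RANKL against PBS shrank from 1.04 to 0.342. Without RANKL + Vit D + K replicate 2 the change of H2-DMb2 was -2.89 against RANKL and -2.51 against PBS. Genes of the pathway lists that did not pass gained a call in at most 4 of the 18 settings of a comparison, except Irf8 (8, RANKL against PBS). With the replicate block, 8 and 9 genes were again lower in the comparisons of the vitamin group and 0 passed between RANKL and PBS. For those with the vitamin group the numbers only name the libraries (correlations of deviations from -0.0216 to 0.107).

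Of the ratios to H2-Ab1, with 1 in place of 0.1 added to each FPKM, the log2 difference of Ciita reversed to 0.802 for vitamins against RANKL and 0.608 for vitamins against PBS, and that of H2-Aa to 0.225 for vitamins against PBS, while for vitamins against RANKL those of Cd74 and H2-Aa shrank to 0.207 and -0.0116, and that of Cd74 to 0.683 for vitamins against PBS. Leaving out 1 library, the H2-Aa difference for vitamins against PBS ran from -0.401 to 0.0850, turning without RANKL + Vit D + K replicate 1. The Ciita difference for RANKL against PBS ran from -0.294 to 0.0541, turning without RANKL replicate 3 (0.0541) or PBS replicate 1 (0.0498). The pair of motifs chosen after the windows were read was in 5 windows, against 2 for the first choice. Counts of 4 to 15 for H2-Ob limit its vitamin values, and the cause of the other differences was not tested.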
